A study of Mus musculus with 12 samples.

Results

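The libraries labelled 41585 and KO form the comparison described here, 4 of the 12 poly(A) RNA libraries of the series, and they were chosen by the group named in their sample descriptions. KO is a mouse E14 embryonic stem cell line of the 129/Ola background that lacks Dicer. Line 41585 is a Dicer-complemented line of the same series, described by the submitters as processing neither miRNAs nor siRNAs. Each has 2 libraries. WT, also with 2 libraries, is the E14 line with its own Dicer, and the lines SOM, 41584 and 41589 (2 libraries each) entered the estimate of the spread. The description of 41584 likens it to WT and that of 41589 names a loss of siRNA processing only. Cells of all 6 groups were grown in serum with LIF on gelatin and under puromycin. Which Dicer form 41585 carries, which part of Dicer1 was removed in KO, and how many clones were used was not given in the sources used here. At issue is which transcripts differ between a line that received a non-processing Dicer and a line that received none.

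Dicer is the RNase III enzyme that cuts hairpin precursors into miRNAs and long double-stranded RNA into siRNAs. A miRNA, loaded into an Argonaute protein, pairs through its seed (bases 2 to 8) with sites in 3' UTRs and lowers the level and translation of those messages. Embryonic stem cells make large amounts of miRNAs that share the AAGUGC core in their seed, and Dicer-deficient stem cells are known to grow slowly and to differentiate poorly. Since both lines are described as lacking miRNA processing, the miRNAs whose targets are compared are printed here with the seed in capitals, from the RefSeq annotation of GRCm38.p6. The set is the stem cell families with the AAGUGC core, which set the target list used further on, and let-7a, a miRNA of differentiating cells.
miR-291a-3p: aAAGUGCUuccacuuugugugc
miR-294-3p: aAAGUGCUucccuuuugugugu
miR-295-3p: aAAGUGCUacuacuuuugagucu
miR-302b-3p: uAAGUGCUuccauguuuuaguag
miR-302d-3p: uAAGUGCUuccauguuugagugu
miR-17-5p: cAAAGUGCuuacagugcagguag
miR-93-5p: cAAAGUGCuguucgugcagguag
let-7a-5p: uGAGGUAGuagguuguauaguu
The 5 members of the miR-290 and miR-302 clusters carry the same seed, AAGUGCU. The seed of miR-17-5p and miR-93-5p, AAAGUGC, holds the same core moved by 1 base, and that of let-7a-5p, GAGGUAG, is unrelated.

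The 4 libraries held between 6610469 and 8357647 counted reads. Levels are given as CPM, read counts scaled to the TMM-adjusted total of each library. Folds are log2 differences of 41585 minus KO, with a standard error derived from the test of the fit. Across genes, log2 CPM correlated at 0.983 between the KO libraries, at 0.973 between the 41585 libraries and at 0.954 to 0.974 between a library of each line. All 8 stem cell markers examined were above 1 CPM, and their summed level was 6119 to 6380 CPM in KO and 6205 to 6765 CPM in 41585. The 12 fibroblast markers summed to 78.5 to 123 CPM in KO and to 152 to 153 CPM in 41585, without overlap. Of these, 3 exceeded 1 CPM in any of the 4 libraries. Vim, an intermediate filament gene that stem cells also express, had 113 and 69.4 CPM in KO and 133 and 143 CPM in 41585. Thy1 had 7.44 and 5.85 CPM in KO and 14.04 and 7.33 CPM in 41585, and Pdgfrb 2.46 CPM at most in KO against 3.86 and 2.19 CPM. The fibroblast collagens Col1a1, Col1a2 and Col3a1 were at or below 0.308 CPM, and 3 markers of the list had no read in any of these 4 libraries. Summed mesoderm markers (6 genes) were at 2.31 to 6.46 CPM in KO and 8.62 to 8.78 CPM in 41585, without overlap. Only 1 of them exceeded 1 CPM in any of the 4 libraries, Evx1 (5.61 and 1.54 CPM in KO, 7.49 and 8.10 CPM in 41585). Neural markers (7 genes) summed to 19.5 to 25.1 CPM in KO and 33.3 to 40.2 CPM in 41585, also without overlap. The largest part was Tubb3 (10.6 and 16.01 CPM in KO, 31.1 and 20.2 CPM in 41585). Of the other neural markers above 1 CPM, Pax6 was also higher without overlap (4.39 and 3.08 CPM against 5.27 and 5.79 CPM), while Sox1 and Neurod1 overlapped. The sums overlapped for primitive endoderm (5.85 to 9.27 CPM in KO and 6.44 to 9.26 CPM in 41585), trophectoderm (90.7 to 110 CPM and 61.5 to 98.6 CPM) and blood (6.62 to 8.78 CPM and 2.70 to 8.89 CPM). The part of these markers in the results was not tested.

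No gene was called different between line 41585 and the knockout. Of 14629 genes tested with edgeR's quasi-likelihood test over all 12 libraries, 0 (0%) had a Benjamini-Hochberg adjusted p under 0.05, and the smallest adjusted p was 0.642. At an unadjusted p under 0.05 there were 995 genes (6.80%), 719 higher in 41585 (4.91%) and 276 lower (1.89%). DESeq2 on the same libraries called 1 gene, Fmr1nb, with an adjusted p of 1.39e-05. For comparison within the same edgeR fit, 4274 genes (29.2%) were called in 41585 against WT and 1929 (13.2%) in KO against WT. Those comparisons share the WT libraries with each other and a line each with the comparison of 41585 and KO.

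The absence of calls sets only a loose bound on how alike the lines are. The 95% interval of a gene's log2 fold had a median half-width of 0.85, and the whole interval lay inside a 2-fold change in either direction for 4945 genes (33.8%). Among the 10473 genes with a mean of at least 5 CPM in the 4 libraries, that share was 47.0%. The fitted fold itself exceeded 2-fold in 1503 genes (10.3%), and in 24 genes the interval lay wholly beyond it. Nothing in the labels says that the 2 libraries of a line came from separate cultures, so that p-values measure the spread between these libraries only.

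Estimating the spread from the 4 libraries alone changed that count. In that fit 545 of 13392 genes (4.07%) were called, 481 higher in 41585 (3.59%) and 64 lower (0.478%). The biological coefficient of variation was 0.170 there, against 0.278 over 12 libraries. The 4-library count was 3 without replicate 1 of KO and 0 without replicate 2, and 3065 and 3300 without replicate 1 or 2 of 41585. When the trend of each library with the GC content and length of transcripts was removed, edgeR called 0 genes with the 4 libraries (1827 at an unadjusted p under 0.05) and 0 with all 12 (749). Calls of the 4-library fit are therefore given as descriptions of these libraries, with the fold after removal of that trend for most genes named. The genes singled out from that fit were chosen after its values were seen, since the rule for naming genes was written for calls of the 12-library fit.

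**Figure D1:**
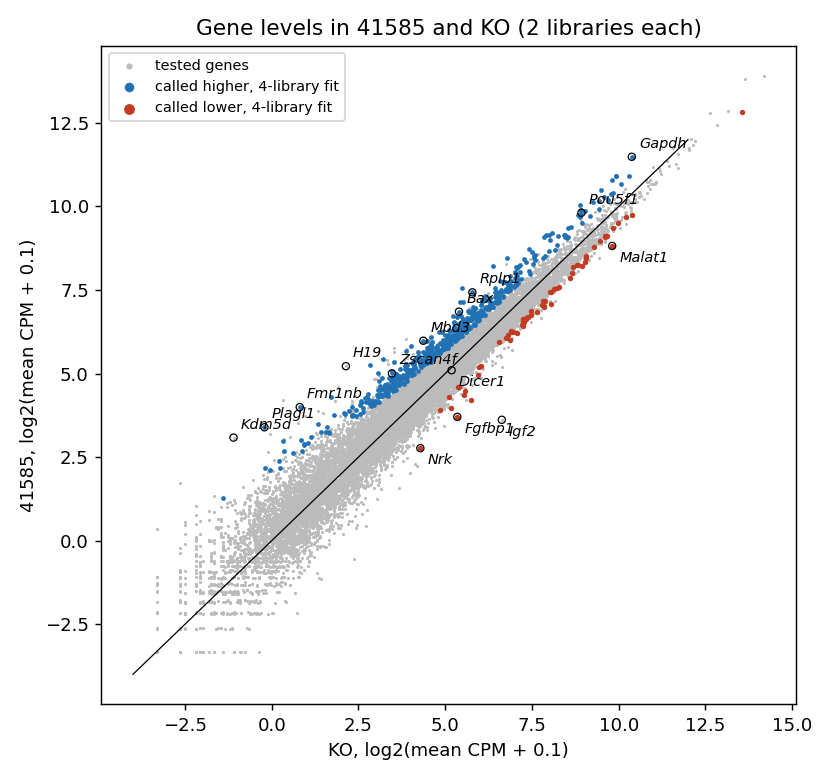
Mean level of each of the 14629 tested genes in KO (x axis) and in 41585 (y axis), both as log2(mean CPM + 0.1) over 2 libraries, with the line of equality. Blue and red points are the 481 genes higher and the 64 genes lower in 41585 that the 4-library fit called, and circled genes are described in the text.

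The Dicer1 message did not separate the lines. Dicer1 (ENSMUSG00000041415, chromosome 12, 104687742 to 104751952, GRCm38) stood at 28.5 and 44.0 CPM in KO and at 29.1 and 39.2 CPM in 41585, and at 197 and 214 CPM in WT. The ranges of KO and 41585 overlapped and both lay far under WT. The fold was -0.08 ± 0.35, with a 95% interval from -0.83 to 0.66 and an edgeR adjusted p of 0.941. Against WT, edgeR gave -2.59 in 41585 (adjusted p = 0.001) and -2.50 in KO (adjusted p = 0.002). Of the other complemented lines, 41589 had 40.2 and 27.8 CPM, 41584 had 42.3 and 55.0 CPM and SOM had 105 and 215 CPM. Whether reads of the Dicer put back are counted under Dicer1 was not tested, so that these levels do not measure it.

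The list of small RNA pathway genes, which includes Dicer1, gave no call in the 12-library fit. Of its 22 tested genes, 0 were called and 0 passed an unadjusted p of 0.05, against 6.80% of all tested genes, a share at which few would be counted among 22. Both 41585 libraries lay above both KO libraries in 4 genes and below them in 8 (29.6% and 28.2% of all tested genes), and the median fold was -0.12 (-0.01 after removal of the GC trend), beside 0.00 (0.02) for all genes. Drosha, the nuclease that releases miRNA hairpins in the nucleus, had 313 and 331 CPM in KO and 318 and 257 CPM in 41585. Its partner Dgcr8, the RNA-binding subunit of the Microprocessor, had 120 and 121 CPM in KO and 94.2 and 97.4 CPM in 41585, a fold of -0.33 ± 0.28. The groups overlapped for Drosha and not for Dgcr8. Xpo5, which exports the hairpins to the cytoplasm, gave a fold of 0.00, with a 95% interval from -0.50 to 0.51.

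Among the Dicer partners, Tarbp2 stood at 30.2 and 34.8 CPM in KO and at 65.1 and 37.8 CPM in 41585, and Prkra at 17.1 and 15.4 CPM against 12.6 and 10.8 CPM. The 2 genes encode double-stranded RNA-binding proteins that accompany Dicer, and their folds pointed in opposite directions without passing the test (0.66 ± 0.46 and -0.47 ± 0.33). Ago2, the slicing Argonaute, had 464 and 482 CPM in KO and 384 and 324 CPM in 41585, with no overlap and a fold of -0.42 ± 0.28. Lin28a, an RNA-binding protein that blocks let-7 maturation, had 18.5 and 24.2 CPM in KO and 18.0 and 22.4 CPM in 41585, against 121 and 211 CPM in WT. In both lines it was thus far under WT (-2.96 in KO and -3.04 in 41585, each with an edgeR adjusted p of 0.001) while the fold between them was -0.08 ± 0.35.

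Mov10 was the gene of this pathway that the 4-library fit called, 1 of 21 in that fit, against 4.07% of all genes. It encodes an RNA helicase associated with Argonaute complexes. Its level was 215 and 169 CPM in KO and 334 and 343 CPM in 41585, while WT had 26.3 and 52.8 CPM. Both 41585 libraries lay above both KO libraries, which held for 29.6% of all tested genes. The fold was 0.82 ± 0.40 (adjusted p = 0.642 over 12 libraries, 0.034 over 4, both by edgeR), and 0.38 after removal of the GC trend. Over WT, Mov10 was higher in both lines, by 3.09 in 41585 and 2.27 in KO (edgeR adjusted p = 0.001 and 0.006).

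Targets of the AAGUGC-seed miRNAs had a median fold of -0.06 between the lines, beside 0.00 for all tested genes. Of 22 genes known as targets, 21 were tested and 0 were called, as of all tested genes (0%). Their folds ran from -0.83 to 0.78, with 8 above 0 and 13 below. In 7 targets both 41585 libraries lay below both KO libraries and in 3 above them (28.2% and 29.6% of all tested genes). Against WT their median was 0.58 in 41585 and 0.72 in KO, given side by side as the comparisons share the WT libraries. Lats2, a kinase of the Hippo pathway and a target of the miR-290 family, had 29.9 and 22.3 CPM in KO and 24.0 and 35.5 CPM in 41585, with 1.24 and 1.53 CPM in WT. The fold between the lines was 0.19 ± 0.51 (interval -0.92 to 1.29), and over WT it was 4.396 in 41585 and 4.21 in KO (edgeR adjusted p = 0.001 and 0.002).

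Irf2, an interferon regulatory factor, stood at 15.7 and 7.70 CPM in KO and at 7.96 and 14.7 CPM in 41585, and at 0.773 and 0.109 CPM in WT. Lefty1, a secreted inhibitor of Nodal, had 20.2 and 30.8 CPM in KO and 45.3 and 34.0 CPM in 41585, without overlap (0.64 ± 0.44, and 0.08 after removal of the GC trend). Cdkn1a, the cell cycle inhibitor p21, had 92.6 and 89.8 CPM in KO and 119 and 138 CPM in 41585. Its WT libraries, at 106 and 66.8 CPM, spanned the KO values, and no comparison called it. Bmpr2, a BMP receptor, was the only listed target past an unadjusted p of 0.05, which 6.80% of all genes passed. It was lower in 41585 (48.0 and 56.1 CPM against 68.3 and 97.3 CPM, -0.67 ± 0.29).

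Sites for the same seeds were counted in annotated 3' UTRs. The letters AGCACTT, which pair with the AAGUGCU seed, were searched on the transcribed strand in the UTRs, 50 bases or longer, of 12920 tested genes and were found in 2398. Genes with the site had a median fold of -0.09 and those without it of 0.04. After removal of the GC trend the medians were 0.01 and 0.02, and the transcripts with the site had a median GC content of 47.5% against 50.2% without. For GCACTTT, which pairs with the miR-17 seed and overlaps the former by 6 letters, 1954 genes had a median of -0.09, and the rest 0.03 (0.00 and 0.02 after removal of the trend). For CTACCTC, the let-7 match, 1571 genes had a median of 0.00 and the rest 0.01. A match of letters is a description of the UTR, not a measured site.

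Interferon-stimulated genes had similar medians above WT in both lines. The list held 26 tested genes, with a median over WT of 2.001 in 41585 and 1.97 in KO and a median of -0.09 between the lines. Of these, 0 were called, as of all tested genes (0%). At an unadjusted p under 0.05, 0 were higher and 1 lower (4.91% and 1.89% of all genes). The 9 tested interferon-induced GTPases had medians over WT of 3.98 and 4.16 and a median of -0.22 between the lines (0.00 after removal of the GC trend). Gbp2, a guanylate-binding protein, had 16.6 and 11.7 CPM in KO and 12.8 and 13.8 CPM in 41585, while WT had 0.155 and 0.109 CPM. Zbp1, a sensor of left-handed nucleic acids, had 17.1 and 12.01 CPM in KO and 15.2 and 21.4 CPM in 41585, with 0.155 and 0.328 CPM in WT. The lines overlapped in both genes, with intervals of -1.02 to 0.83 for Gbp2 and -1.10 to 1.75 for Zbp1.

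In 6 of the 26 listed genes both 41585 libraries lay below both KO libraries and in 4 above them, against 28.2% and 29.6% of all tested genes. The 4-library fit called 0, against 4.07% of all genes. Eif2ak2, the kinase PKR that is activated by double-stranded RNA and the listed gene past an unadjusted p of 0.05, had 102 and 99.9 CPM in KO and 67.3 and 68.4 CPM in 41585, against 51.3 and 52.0 CPM in WT. This was a fold of -0.57 ± 0.25 (edgeR adjusted p = 0.642 over 12 libraries and 0.054 over 4), and -0.30 without the GC trend. Aim2 (chromosome 1, 173350879 to 173466040), which is outside that list and was named for its 4-library fold, is a cytosolic sensor of double-stranded DNA. It had 132 and 139 CPM in KO and 85.8 and 61.1 CPM in 41585, against 28.8 and 21.2 CPM in WT. Aim2 was thus intermediate, at -0.88 ± 0.26 from KO (edgeR adjusted p = 0.642 over 12 libraries, 0.0495 over 4; -0.56 without the trend) and 1.56 above WT (edgeR adjusted p = 0.003). Oasl2, an oligoadenylate synthetase-like protein, had 35.4 and 29.6 CPM in KO and 24.1 and 9.39 CPM in 41585, with the 41585 libraries far from each other.

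A regular difference between the lines followed the GC content of the transcripts. In quintiles of the tested genes by GC content, the median fold was -0.34, -0.19, -0.01, 0.24 and 0.57 from the lowest to the highest. Across the 14596 genes with a GC value, which are not independent replicates, the Spearman correlation of fold and GC content was 0.57, and 0.09 after removal of the trend. Genes higher in 41585 by the 4-library fit had a median GC content of 57.1% and genes lower of 42.5%, with 49.4% for all tested genes. Of the 481 higher genes, 344 lay in the highest quintile and 1 in the lowest. Of the 64 lower genes, 48 lay in the lowest quintile and 0 in the highest.

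The same gradient separated libraries of a single group elsewhere in the series. As the median deviation of the highest quintile minus that of the lowest, it was 1.05 and 0.68 in the 41585 libraries and 0.03 and -0.08 in KO. In 41589 it was -0.65 in replicate 1 and 0.77 in replicate 2, in WT -0.97 and -0.27, and in 41584 0.09 and -0.74. The span between the 2 libraries of 41589 was thus at least as wide as that between 41585 and KO. For the 481 higher genes, both WT libraries lay nearer KO in 452 (94.0%, against 56.8% of all tested genes), and the 41589 libraries lay on opposite sides of the midpoint in 379 (78.8%, against 35.2%). For the 64 lower genes, both WT libraries lay nearer KO in 40 (62.5%) and nearer 41585 in 14 (21.9%, against 28.8%). The 41589 libraries lay on opposite sides in 34 of them (53.1%). What part of these differences belongs to the line and what part to the library cannot be told apart with 2 libraries each.

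**Figure D2:**
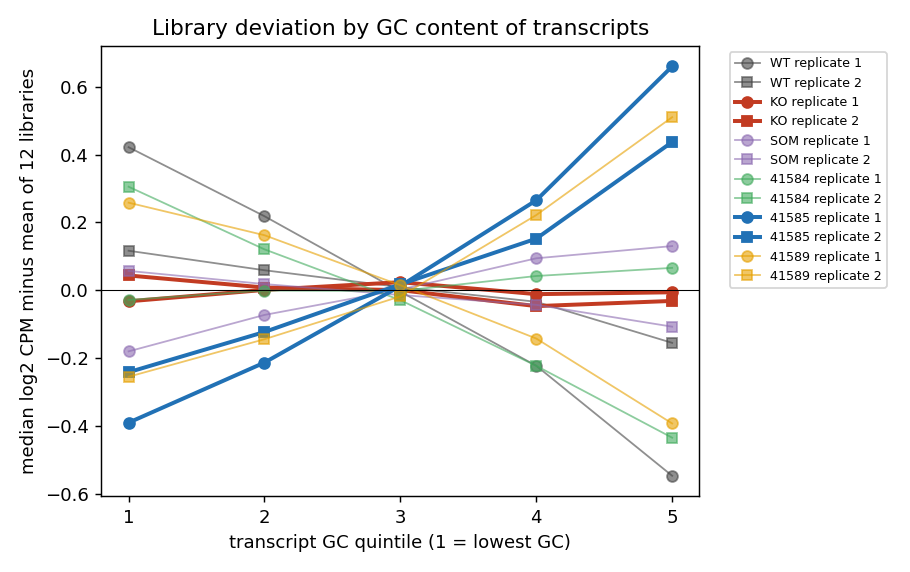
Median log2 CPM of each library minus the mean of the 12 libraries (y axis), by quintile of transcript GC content (x axis, lowest to highest), with a line per library. The 41585 libraries (blue) reach 0.66 and 0.44 in the highest quintile and the KO libraries (red) stay within 0.05 of 0, while the 41589 libraries (yellow) run in opposite directions.

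Ribosomal protein and glycolysis genes made up part of the genes higher in 41585. Their median GC contents were 52.4% and 52.6%, against 49.4% for all tested genes and 57.1% for the genes called higher by the 4-library fit. Of 28 tested ribosomal protein genes, 12 were called higher and 0 lower by the 4-library fit, against 3.59% of all genes, and 0 in the 12-library fit. The median fold was 0.48, and 0.33 after removal of the GC trend. Rplp1, of the ribosomal stalk, had 59.9 and 50.03 CPM in KO and 175 and 170 CPM in 41585. WT had 30.6 and 47.3 CPM, and the 41589 libraries lay apart at 31.8 and 194 CPM. The fold of 1.65 ± 0.61 was 1.10 without the GC trend. Reads of ribosomal protein genes can be shared with their processed pseudogenes, so that their assignment is uncertain.

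Of 27 tested genes of glycolysis and the hypoxia response, 9 were called higher and 0 lower by the 4-library fit (3.59% and 0.478% of all genes), and 0 in the 12-library fit, with a median fold of 0.25 (0.03 without the GC trend). Gapdh, the glyceraldehyde phosphate dehydrogenase, had 1350 and 1314 CPM in KO and 2960 and 2783 CPM in 41585, while 41589 had 719 and 2463 CPM. Its fold was 1.11 ± 0.49 and 0.98 without the trend. Pkm, the pyruvate kinase, had 1048 and 911 CPM in KO and 2008 and 1876 CPM in 41585, and its fold of 0.99 ± 0.45 was 0.53 without it. In both genes the 41585 libraries were well above KO and close to replicate 2 of 41589.

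Some GC-rich genes with a known role were also higher in 41585. Bax, which permeabilises mitochondria in apoptosis, had 45.7 and 38.3 CPM in KO and 115 and 116 CPM in 41585. Its fold was 1.46 ± 0.57 (edgeR adjusted p = 0.642 over 12 libraries and 0.019 over 4), and 0.71 without the GC trend. Mbd3, a subunit of the NuRD repressor complex, had 21.6 and 19.6 CPM in KO and 64.5 and 61.9 CPM in 41585, a fold of 1.62 ± 0.61 and 0.90 without the trend. Pou5f1, the pluripotency factor Oct4, had 509 and 465 CPM in KO and 946 and 854 CPM in 41585, a fold of 0.89 ± 0.43 and 0.42 without the trend. Its range over the other groups was wide, from 140 CPM in replicate 1 of WT to 791 CPM in replicate 2 of 41589.

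Among pluripotency genes, 22 were tested, 3 were higher at an unadjusted p under 0.05 (4.91% of all genes) and 3 were called higher by the 4-library fit (3.59%), with a median of 0.19 (0.20 without the trend). Tcl1, a coactivator of the Akt kinase, had 11.8 and 13.5 CPM in KO and 25.5 and 24.6 CPM in 41585, and 46.7 and 73.8 CPM in WT. The 41585 libraries were between KO and WT, and the fold of 0.98 ± 0.37 was 0.85 without the GC trend. Extracellular matrix genes had folds in both directions. Of 36 tested collagen, laminin and integrin genes, 4 were called higher by the 4-library fit and 0 lower (3.59% and 0.478% of all genes), with a median of 0.32 that was 0.04 without the trend. At an unadjusted p under 0.05, 6 were higher and 3 lower (4.91% and 1.89%). Lamb2, a laminin chain, had 8.42 and 8.78 CPM in KO and 24.5 and 25.1 CPM in 41585 (1.53 ± 0.49, and 1.00 without the trend). Itga8, an integrin subunit, had 2.81 and 7.70 CPM in KO and 1.76 and 0.643 CPM in 41585 (-2.09 ± 0.64).

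**Figure D3:**
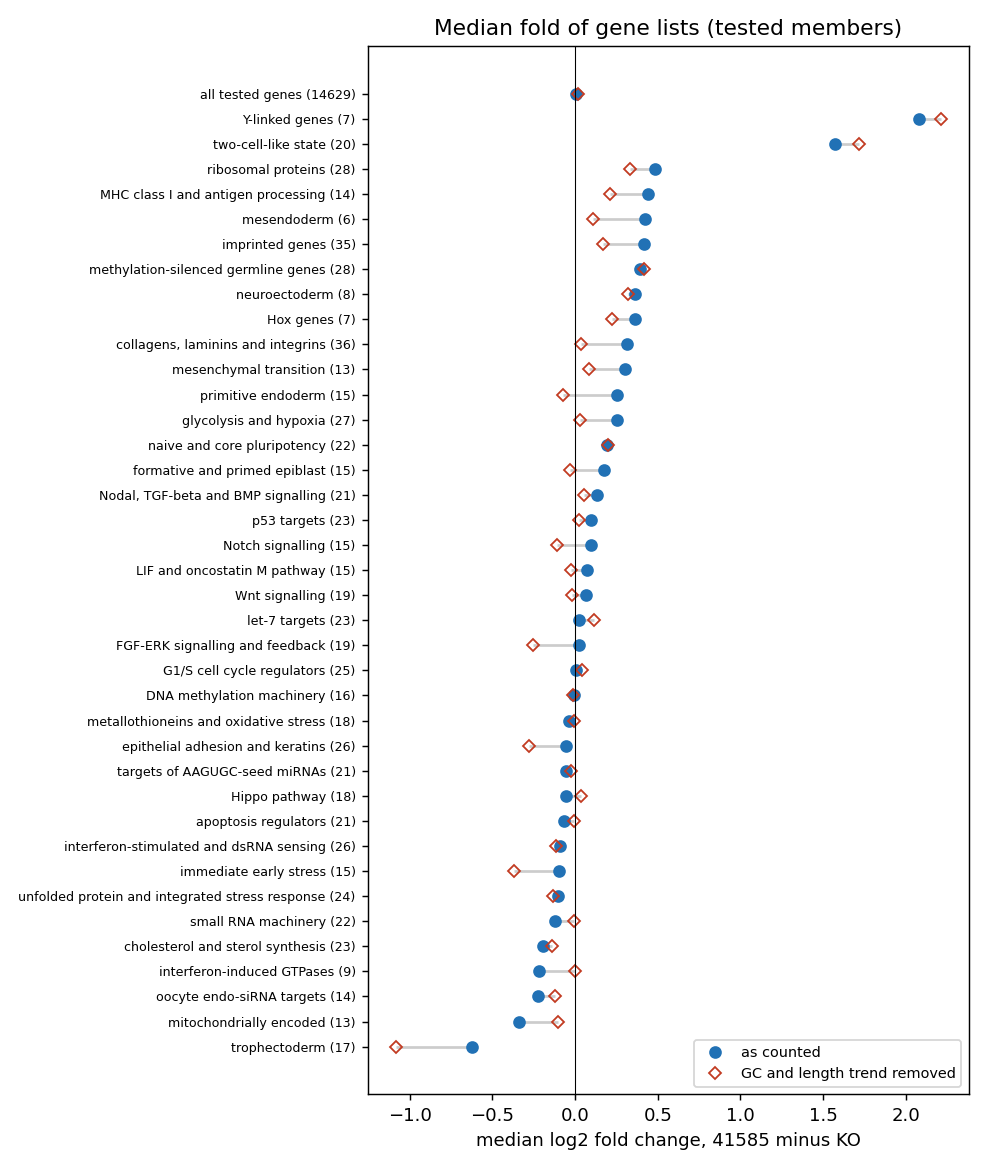
Median log2 fold of 41585 minus KO (x axis) for each gene list with at least 5 tested members (y axis, number tested in brackets), as counted (blue circles) and with the GC and length trend removed (red diamonds). Ribosomal protein and glycolysis genes move towards 0 without the trend, and the two-cell-like genes stay at 1.57 and 1.72.

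Genes of the two-cell-like state formed the list with the highest median apart from the Y-linked genes. This state is a rare and transient condition of stem cells that resembles the two-cell embryo, and it is marked by the Zscan4 cluster. Of 28 listed genes 20 were tested and 0 were called by the 12-library fit. The 4-library fit called 2 higher, Zscan4b and Zscan4f, and 0 lower, against 3.59% and 0.478% of all genes. The median fold was 1.57, beside 0.00 for all tested genes. In 19 genes both 41585 libraries lay above both KO libraries, which held for 29.6% of all tested genes. Their transcripts had a median GC content of 46.9%, and without the GC trend the median was 1.72. Eif1a, a translation initiation factor gene, was the exception, at -0.34 ± 0.27.

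Zscan4f (chromosome 7, 11397915 to 11402318), of the telomere-associated Zscan4 family, had 12.8 and 9.08 CPM in KO and 34.3 and 29.7 CPM in 41585. The groups did not overlap, and the fold was 1.54 ± 0.87 (edgeR adjusted p = 0.642 over 12 libraries and 0.027 over 4). Zscan4c had 20.2 and 9.54 CPM in KO and 50.2 and 38.7 CPM in 41585, and Zscan4d 23.4 and 14.2 CPM against 50.9 and 38.8 CPM. Both were at adjusted p-values just past the threshold in the 4-library edgeR fit (0.056 and 0.054). Usp17le, a deubiquitinase of the same early programme, had 3.17 and 1.54 CPM in KO and 11.1 and 7.08 CPM in 41585. Reads of the Zscan4, Usp17l and Tdpoz copies can be split among near-identical genes, so that their levels are uncertain one by one.

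Other libraries of the series varied as much in these genes. Zscan4f was at 13.9 and 11.2 CPM in WT, and at 33.5 and 4.02 CPM in the 2 libraries of 41589. As the median deviation of the list from the mean of 12 libraries, 41585 had 1.43 and 1.15 and KO 0.23 and -0.53. The values were 0.53 and -1.83 in 41589 and 0.24 and -1.78 in SOM, so that the 41585 libraries were the highest of the 12 and the spread within 41589 or SOM was at least as large as the step from KO to 41585. With bulk libraries, more cells in that state and more RNA per cell cannot be told apart.

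2 genes of early embryos outside that list stood with it among the largest folds. Pramel7, a PRAME-like protein of the preimplantation embryo, had 1.22 and 1.08 CPM in KO and 7.25 and 8.23 CPM in 41585, and 1.24 and 1.53 CPM in WT. Trim43a, a ubiquitin ligase family member of early embryos, had 1.59 and 0.770 CPM in KO and 5.03 and 7.59 CPM in 41585. Both were called by the 4-library fit, at folds of 2.73 ± 1.10 and 2.38 ± 0.96, which were 2.99 and 2.58 without the GC trend.

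A few genes of other functions had the largest folds among those the 4-library fit called. Plagl1 (ENSMUSG00000019817, chromosome 10, 13060504 to 13131694), an imprinted zinc finger factor, had 1.22 and 0.308 CPM in KO and 8.07 and 12.7 CPM in 41585. WT stood with KO at 1.24 and 0.875 CPM, and 41589 was split at 8.45 and 1.64 CPM. The fold was 3.69 ± 1.15 (edgeR adjusted p = 0.642 over 12 libraries and 0.029 over 4), and 3.82 without the GC trend.

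Fmr1nb (ENSMUSG00000062170, chromosome X, 68761839 to 68804567) had the smallest p of the comparison. It neighbours Fmr1 and belongs to the cancer-testis genes. Its level was 2.68 and 0.616 CPM in KO and 10.5 and 21.2 CPM in 41585, and 28.6 and 23.5 CPM in WT. All libraries outside KO were at 10.5 CPM or more, so that the 2 KO libraries stood alone. The fold was 3.20 ± 0.54, with a 95% interval from 2.04 to 4.37 and an edgeR adjusted p of 0.642 over 12 libraries, 0.045 over 4. Against WT, edgeR gave -3.92 in KO (adjusted p = 0.001) and -0.72 in 41585 (adjusted p = 0.240).

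H19 and Igf2, reciprocally imprinted neighbours on chromosome 7, stood in opposite directions. H19 (142575529 to 142578143), a non-coding RNA made from the maternal copy, had 5.98 and 2.62 CPM in KO and 60.3 and 14.2 CPM in 41585, and 1.24 and 1.75 CPM in WT. Igf2 (142650766 to 142666816), the growth factor made from the paternal copy, had 75.5 and 123 CPM in KO and 23.05 and 1.29 CPM in 41585, and 3.40 and 2.73 CPM in WT. The lines did not overlap in either gene, and the 41585 libraries differed more from each other than the KO libraries did. The folds were 3.10 ± 1.26 for H19 and -3.02 ± 0.82 for Igf2, neither called by edgeR over 12 libraries (adjusted p = 0.642) or over 4 (0.090 and 0.201). Without replicate 1 of 41585, Igf2 was called, at -6.28 (edgeR adjusted p = 0.025). Over all 35 tested imprinted genes the median fold was 0.41 (0.17 without the GC trend), with 4 higher and 1 lower at an unadjusted p under 0.05 (4.91% and 1.89% of all genes).

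Of 19 tested Wnt signalling genes, 2 were higher and 0 lower at an unadjusted p under 0.05 (4.91% and 1.89% of all genes). The 4-library fit called 1 higher, Notum, and 0 lower, against 3.59% and 0.478% of all genes. The median fold was 0.07 (-0.02 without the GC trend), with 8 genes below 0. Axin2, an inhibitor induced by the pathway, had 0.610 and 0.154 CPM in KO and 2.11 and 2.06 CPM in 41585, and 3.71 and 6.67 CPM in WT. Notum, a secreted enzyme that inactivates Wnt proteins, had 44.5 and 40.95 CPM in KO and 107 and 174 CPM in 41585, and 0.773 and 3.61 CPM in WT. Relative to WT the 2 genes thus lay on opposite sides, Axin2 below and Notum above. Their folds between the lines were 2.33 ± 0.66 and 1.72 ± 0.83, and edgeR's adjusted p was 0.642 for each over 12 libraries and 0.081 and 0.026 over 4. Lef1, a transcription factor of the pathway, was at 15.95 CPM in replicate 2 of 41585 and at 2.11 CPM in replicate 1.

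The rest of the genes with the largest folds in the 4-library fit were mostly GC-rich. Hdc, the histidine decarboxylase, had 2.32 and 1.08 CPM in KO and 6.79 and 9.005 CPM in 41585 (2.19 ± 0.56, and 2.26 without the GC trend). Rpl36, a ribosomal protein gene of 60.8% GC, had 9.15 and 9.08 CPM in KO and 43.1 and 43.4 CPM in 41585, and 3.96 and 48.0 CPM in 41589. Its fold of 2.24 ± 0.78 was 1.51 without the trend. Crocc, the ciliary rootlet protein, had 7.44 and 8.93 CPM in KO and 25.4 and 39.7 CPM in 41585 (1.99 ± 0.67, and 1.27). Bckdha, a subunit of the branched-chain ketoacid dehydrogenase, had 11.1 and 11.5 CPM in KO and 43.2 and 37.3 CPM in 41585 (1.83 ± 0.62, and 1.33). In these genes, chosen by their folds in the same 4 libraries, the groups did not overlap. Both 41585 libraries lay above both KO libraries in 29.6% of all tested genes.

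Of the genes lower in 41585, Fgfbp1 had the largest fold in the 4-library fit. It encodes a secreted carrier of fibroblast growth factors, on chromosome 5 (43978858 to 43981779). Its level was 42.7 and 38.6 CPM in KO and 16.7 and 9.13 CPM in 41585, and 0.155 and 2.52 CPM in WT. The fold was -1.65 ± 0.66 (edgeR adjusted p = 0.642 over 12 libraries and 0.039 over 4), and -1.56 without the GC trend. Against WT, edgeR gave 4.81 in KO (adjusted p = 0.003) and 3.16 in 41585 (adjusted p = 0.012).

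Nrk, a kinase of the Ste20 family, had 18.9 and 19.9 CPM in KO and 8.66 and 4.76 CPM in 41585 (-1.53 ± 0.40). Gng2, a G protein gamma subunit, had 35.2 and 36.0 CPM in KO and 17.8 and 13.5 CPM in 41585, and 84.8 and 69.8 CPM in WT (-1.19 ± 0.29). Abca1, the cholesterol exporter, had 231 and 299 CPM in KO and 149 and 119 CPM in 41585, and 65.4 and 61.5 CPM in WT (-0.98 ± 0.29). Without the GC trend these folds were -1.21, -0.91 and -0.88. In each gene, chosen by its fold in the same 4 libraries, the groups did not overlap. Both 41585 libraries lay below both KO libraries in 28.2% of all tested genes. Malat1, an abundant nuclear RNA, had 838 and 963 CPM in KO and 498 and 406 CPM in 41585 (-0.99 ± 0.33, and -0.68). Gng2 and Abca1 lay on opposite sides of WT, both lines below it for Gng2 and above it for Abca1.

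**Figure D4:**
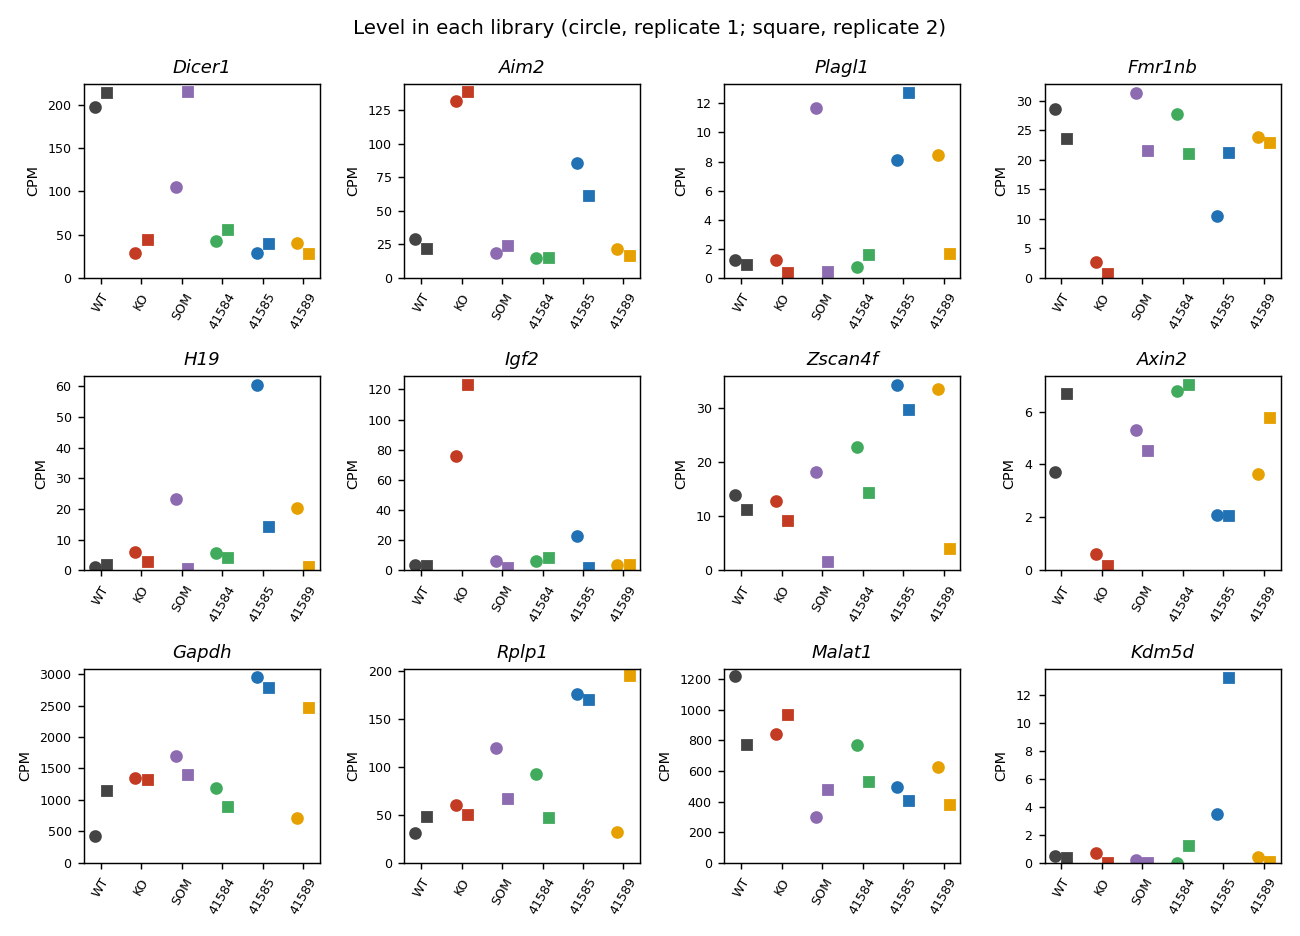
Level of 12 genes in each library (y axis, CPM from 0; x axis, group), with circles for replicate 1 and squares for replicate 2. Fmr1nb is low only in the KO libraries, Plagl1 and Zscan4f differ between the 41589 libraries, and Gapdh and Rplp1 are near the same level in 41585 and in replicate 2 of 41589.

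Y-linked genes set replicate 2 of KO apart from every other library. It held 0 reads over the 9 listed Y-linked genes, against 3453 in replicate 1 of KO and 2941 and 3916 in the 41585 libraries. Ddx3y, an RNA helicase, had 219 and 0 CPM in KO and 164 and 214 CPM in 41585. In Ddx3y replicate 1 of KO lay above both 41585 libraries, so that the fold of 0.78 ± 1.52 rested on replicate 2 of KO. Without replicate 1 of KO, edgeR over the remaining libraries called 4 genes, Ddx3y, Uty, Eif2s3y and Uba1y, all of them Y-linked.

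Both 41585 libraries lay above both KO libraries in 4 of the 7 tested Y-linked genes (29.6% of all tested genes). Replicate 2 of KO, with 0 Y-linked reads, lies below any detected level. The count thus rests on replicate 1 of KO alone, and the share over all genes is not a like comparison. Of these 4 genes, 2 passed an unadjusted p of 0.05. Kdm5d, a histone H3 lysine demethylase, had 0.732 and 0 CPM in KO and 3.51 and 13.2 CPM in 41585, and 0.464 and 0.328 CPM in WT. Zfy1, a zinc finger protein, had 2.32 and 0 CPM in KO and 6.67 and 30.4 CPM in 41585, and 49.5 and 20.6 CPM in WT. Their folds were 4.35 ± 1.20 and 3.89 ± 1.23, past an unadjusted p of 0.05 and not called by edgeR (adjusted p = 0.642 each). These 2 folds include the library without Y-linked reads, and so does the median fold of the 7 tested Y-linked genes, 2.08.

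Chromosome 15 separated the 41585 libraries from each other. The median deviation of its 569 tested genes was 0.39 in replicate 1 and -0.23 in replicate 2 of 41585, against 0.14 and 0.13 in KO. No other autosome differed by as much between the 41585 libraries. Wnt7b, a Wnt ligand on that chromosome, had 33.3 and 1.67 CPM in 41585 and 30.4 and 32.0 CPM in KO. The part of this split in the values of other genes named from that chromosome was not tested. Leaving out chromosomes 15, X and Y and the Dlk1-Dio3 region left the count of called genes at 0.

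**Figure D5:**
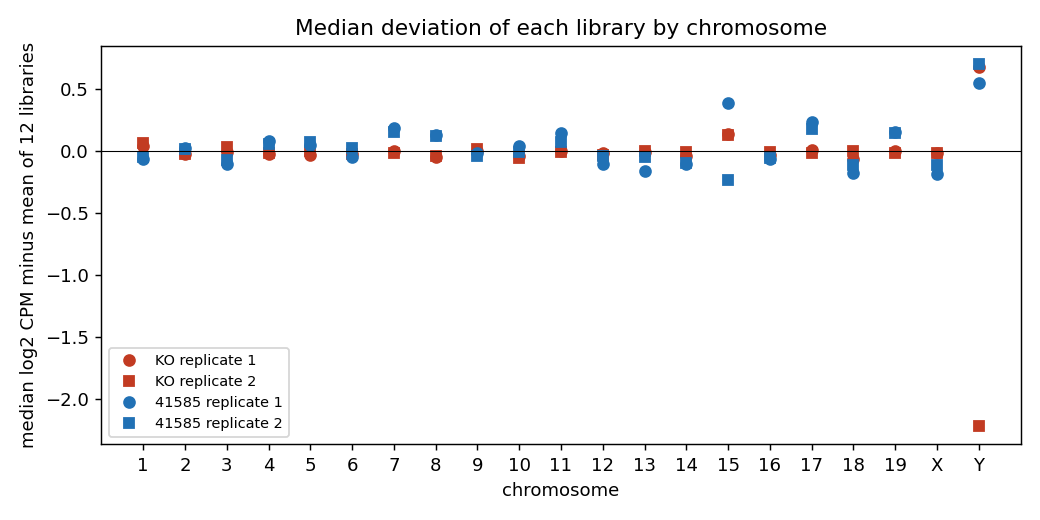
Median log2 CPM of the tested genes of each chromosome (x axis) minus the mean of the 12 libraries (y axis), for the 2 KO and 2 41585 libraries. Chromosome 15 has the 41585 libraries at 0.39 and -0.23 on either side of KO, and on chromosome Y replicate 2 of KO is at -2.22.

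Trophectoderm genes had the lowest list median, -0.63 (-1.08 without the GC trend), with 14 of 17 tested genes below 0. In either fit 0 were called, against 4.07% of all genes in the 4-library fit. Elf5, a transcription factor of the trophoblast, had 9.27 and 3.69 CPM in KO and 1.99 and 0.515 CPM in 41585, and 0.773 and 0.109 CPM in WT (-2.35 ± 0.86). Krt7, a keratin, had 11.8 and 17.9 CPM in KO and 12.99 and 0.386 CPM in 41585. The library medians of the list were 0.81 and 0.69 in KO and 0.70 and -0.48 in 41585, so that replicate 2 of 41585 alone stood below KO.

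Germline genes silenced by DNA methylation had a median of 0.39 (0.42 without the GC trend) over 28 tested genes, with 4 higher and 0 lower at an unadjusted p under 0.05 (4.91% and 1.89% of all genes). Against WT the medians were -1.18 in 41585 and -1.76 in KO. Tuba3a, a testis tubulin, had 21.1 and 11.1 CPM in KO and 53.4 and 60.7 CPM in 41585, and 24.9 and 23.1 CPM in WT (1.82 ± 0.48, edgeR adjusted p = 0.642 over 12 libraries and 0.034 over 4). Stk31, a germ cell kinase, had 8.78 and 5.70 CPM in KO and 9.48 and 28.0 CPM in 41585, and 35.4 and 24.1 CPM in WT. Hormad1, of the meiotic chromosome axis, had 22.9 and 10.6 CPM in KO and 26.4 and 58.0 CPM in 41585. In Stk31 and Hormad1 replicate 1 of 41585 stood close to KO.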

How the data were processed

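The authors deposited raw counts for 47643 Ensembl genes in each of the 12 libraries. Per the labels' protocols, RNA was extracted with Trizol and libraries were reverse-stranded TruSeq libraries read on a HiSeq2000. Per the submitters' processing notes, reads were aligned with STAR 2.4.2a to mm10 (GRCm38). Which program counted reads was not given in the sources used here. GENCODE M21 gave a symbol and position to 47224 genes, and transcript GC content, length and 3' UTRs.

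Counts were tested with edgeR 4.0.16 in R 4.3.3 (quasi-likelihood, robust, TMM, filterByExpr, 1 mean per group) over all 12 libraries, which left 6 residual degrees of freedom, with Benjamini-Hochberg adjustment over 14629 genes. The standard error of a fold was its absolute value divided by the square root of the quasi-likelihood F, and the 95% intervals were built from it. The trend removed was a smooth function (mgcv 1.9.3) of log2 CPM (prior count 2) on GC content and log length, fitted per library and used as an offset. The fits were tested on simulated counts. DESeq2 1.42.0, other scalings and filters, a replicate block and the leaving out of each library served as alternatives.

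Genes named were the small RNA machinery, the Y-linked genes, members that describe a list, and, by a rule for called genes with at least 5 CPM in the higher line, those of the 4-library fit with the largest folds. The 40 gene lists, the members and the tests were chosen with earlier results of these data known, and a list is described by counts and medians with no test. No gene held at most 3 counts over a line and at least 5 CPM in the other.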

Additional observations from a re-analysis of the deposited data

How the results depend on the processing

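The count of called genes was 0 with RLE scaling, with a replicate block over 12 libraries, with the GC and length trend removed (12 or 4 libraries) and without chromosomes 15, X, Y and Dlk1-Dio3. It was 119 with no filter on low counts, 545 with 4 libraries, 89 (89 higher, 0 lower, so that none of the 64 lower genes was called) with a replicate block and 4 libraries, 1 by DESeq2 over 12 libraries and 1044 by DESeq2 over 4. Leaving out a library gave 0 to 4 calls over 12 libraries and 0 to 3300 over 4: 3 and 0 without KO replicates 1 and 2, and 3065 and 3300 without 41585 replicates 1 and 2. DESeq2, trend removal and left-out libraries with 4 libraries were chosen after seeing the data. The lone library was assumed to vary like the rest. Dicer1 was uncalled in each of these, with folds of -0.38 to 0.27. Of the 2436 values of single genes under an alternative, 407 gained a call and 63 uncalled folds changed sign; with 0 calls to start from, none could be lost or reversed. Replicate numbers did not pair the KO and 41585 libraries: differences between replicates 1 and 2 correlated at -0.08 between these lines. Between other groups the correlation ran from -0.08 to 0.51, the latter for WT and 41589, and was 0.33 for 41584 and 41585. Depth limits genes of few counts most, and intervals cover only the spread of these libraries.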

Other observations

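Cholesterol synthesis genes had a median fold of -0.19 over 23 tested genes (-0.14 without the GC trend), with 0 higher and 2 lower at an unadjusted p under 0.05 (4.91% and 1.89% of all genes). The 24 genes of the unfolded protein and integrated stress responses had a median of -0.11. In that list Asns, the asparagine synthetase, had 607 and 530 CPM in KO and 395 and 279 CPM in 41585, while Phgdh, an enzyme of serine synthesis, had 64.3 and 50.5 CPM in KO and 136 and 114 CPM in 41585. The 13 mitochondrially encoded genes were below 0 in 13 of 13 (median -0.34, and -0.10 without the GC trend). In 10 of them both 41585 libraries lay below both KO libraries, against 28.2% of all tested genes, and their transcripts are GC-poor at a median of 37.1%.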
